A study of Mus musculus with 6 samples.

Results

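Macrophages labelled as carrying a lentiviral vector for Glul and then treated with lipopolysaccharide (LPS, part of the outer membrane of some bacteria) were compared with macrophages labelled as treated with LPS. A gene entered the comparison if it reached 1 FPKM in at least 2 of these 4 libraries, and 9458 of the 24752 genes measured did so. FPKM, fragments per exon length and sequencing depth, is a level set relative to gene length and to the depth of the library. All cells were mouse bone marrow-derived macrophages (BMDMs), differentiated for 7 days from the marrow of animals aged 8 to 10 weeks and kept in 10 ng/ml M-CSF, the growth factor of macrophages. Glul_LPS cells had the Glul vector for 36 h and then LPS at 100 ng/ml for 3 h, in libraries named B and C. LPS cells had the same dose and time of LPS, in libraries B and C. Control cells, libraries B and C, had no LPS in their labels and serve below to show where a level stood without it. The protocol names a control vector as well, but whether LPS and control libraries carried it is not stated, so the vector itself and Glul cannot be told apart. The listed samples hold no group with the Glul vector and no LPS, and the promoter that drives Glul in the vector is not given in the sources used here. The labels do not say whether libraries B and C came from separate animals or cultures, so every p-value measures the spread between libraries, which may be technical.

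When Toll-like receptor 4 binds LPS, macrophages switch on cytokine and chemokine genes through NF-kB and AP-1, and make interferon beta, which in turn switches on a second wave of antiviral and antigen presentation genes. The same cells hold defence programmes against oxidants, run by the transcription factor NRF2, and sterol and fatty acid synthesis, run by the SREBP factors. Glutamine synthetase, the product of Glul, makes glutamine from glutamate and ammonia.

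Where a group has 2 values below, they are those of libraries B and C, in that order. The Glul_LPS libraries held 17019324 and 15649764 fragments, the LPS libraries 16103044 and 17100908, and the control libraries 18691669 and 17333625. A gene with 1 kilobase of exon and 1 fragment therefore stood at 0.0535 to 0.0639 FPKM. On the log2 scale, Glul_LPS libraries lay 22.6 to 26.0 units from LPS libraries (Euclidean distance over the genes compared), against 19.8 between Glul_LPS B and C and 19.5 between LPS B and C. Macrophage genes were high in all libraries. Lyz2, which encodes lysozyme, stood at 15459 and 16626 FPKM in Glul_LPS and at 13175 and 14264 FPKM in LPS. Csf1r, the receptor for M-CSF, stood at 336 and 367 FPKM in Glul_LPS and at 292 and 313 FPKM in LPS. Of the markers of other cells, those of osteoclasts summed to 175 and 163 FPKM in Glul_LPS and to 184 and 180 FPKM in LPS, and those of neutrophils to 116 and 113 FPKM in Glul_LPS and to 99.4 and 108 FPKM in LPS, where Csf3r was the highest. Csf3r alone stood at 56.9 and 63.7 FPKM in Glul_LPS and at 51.0 and 55.2 FPKM in LPS. Of the 13 neutrophil markers, 4 were among the genes compared. Their log2 changes of Glul_LPS over LPS ran from −1.07 to 0.23, with 3 above 0 and 1 below. Sums of the other 6 lists ran from 6.29 to 44.1 FPKM in Glul_LPS and from 6.80 to 49.8 FPKM in LPS. The part of such cells in the results was not tested. Cxcr2 and Retnlg of neutrophils, Fcer1a and Mcpt8 of mast cells and basophils and Hbb-bs of red cells were at 0 in all 4 libraries. In a bulk sample, fewer cells of a type and less RNA per cell cannot be told apart.

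Glul itself lay only slightly above LPS in the libraries labelled as overexpressing it, and its change missed the threshold on the adjusted p. Glul stood at 37.2 and 37.7 FPKM in Glul_LPS, at 30.6 and 33.4 FPKM in LPS, and at 140.2 and 140.3 FPKM in control. Both Glul_LPS libraries were above both LPS libraries and far below both control libraries. The means were 37.5 ± 0.397 FPKM in Glul_LPS and 32.0 ± 2.02 FPKM in LPS (SD, n = 2 each). The log2 change over LPS was 0.22 (SE 0.05, 95% interval 0.09 to 0.36, unadjusted p = 0.00606 in limma). It missed the threshold (adjusted p = 0.122, limma with Benjamini-Hochberg adjustment over all genes tested), also in voom on recovered fragments (adjusted p = 0.0722). The gene lies on chromosome 1 of GRCm38, at chr1:153899944-153909723 on the plus strand. A copy in a vector is counted here only if its sequence is that of the annotated transcript. Of Glul, 11.9% of the 50-base stretches also occur in other genes.

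Of the 9458 genes compared, 121 passed a threshold of 0.05 on the adjusted p. Of these, 60 were higher and 61 lower in Glul_LPS, which is 0.547% and 0.556% of the 10962 genes tested. Among the genes past the threshold, 10 were higher and 7 lower by at least 1 log2 unit, and the smallest change was 0.31. For 96.8% of genes the log2 change was under 0.5 in size, and the middle of the distribution stood at 0.02, with quartiles of −0.07 and 0.11. Both Glul_LPS libraries were above both LPS libraries in 27.7% of the genes tested, and both were below in 19.3%. With groups of 2, an exact two-sided permutation test of a single gene cannot go below p = 0.333, so the calls rest on the spread that limma pools over genes. The number of calls was unstable. With 1 library left out, where the lone library of its group is assumed to vary like the others, 18 genes were higher and 18 lower without Glul_LPS B, 2 and 2 without Glul_LPS C, 1 and 0 without LPS B, 4 and 0 without LPS C, and 20 and 37 without either control library. Dropping a control library leaves the change between Glul_LPS and LPS as it was and alters only the spread. For the cytokine, chemokine, acute-phase, guanylate-binding protein and MHC class I lists below, the highest counts came from the fits without a control library. With no filter on low levels, 2 genes were higher and 1 lower. Each of the 121 genes kept its direction in all 6 fits with a library left out. For a gene whose Glul_LPS and LPS libraries do not overlap this was fixed in advance, so it does not bear on the calls. Saa3 passed in all 6 fits, Marco in 5, Gbp4 and H2-Q6 in 4, and 65 of the 121 genes in 0. Many genes named below passed in none of these fits, also where the text does not say so. Among them are Tgfbi, Lox, Gsr, Pgd, Prdx1, Scd2, Hmgcs1, Pltp, Fth1, Hmox1, Cebpa and Ms4a7. Of the genes that fell, they include Ccl6, Ccl4, Oasl1, Cd80, Icam1 and Atf3. Limma voom on the fragments recovered from the FPKM tested 101 of the 121 genes, and 95 passed.

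**Figure D1:**
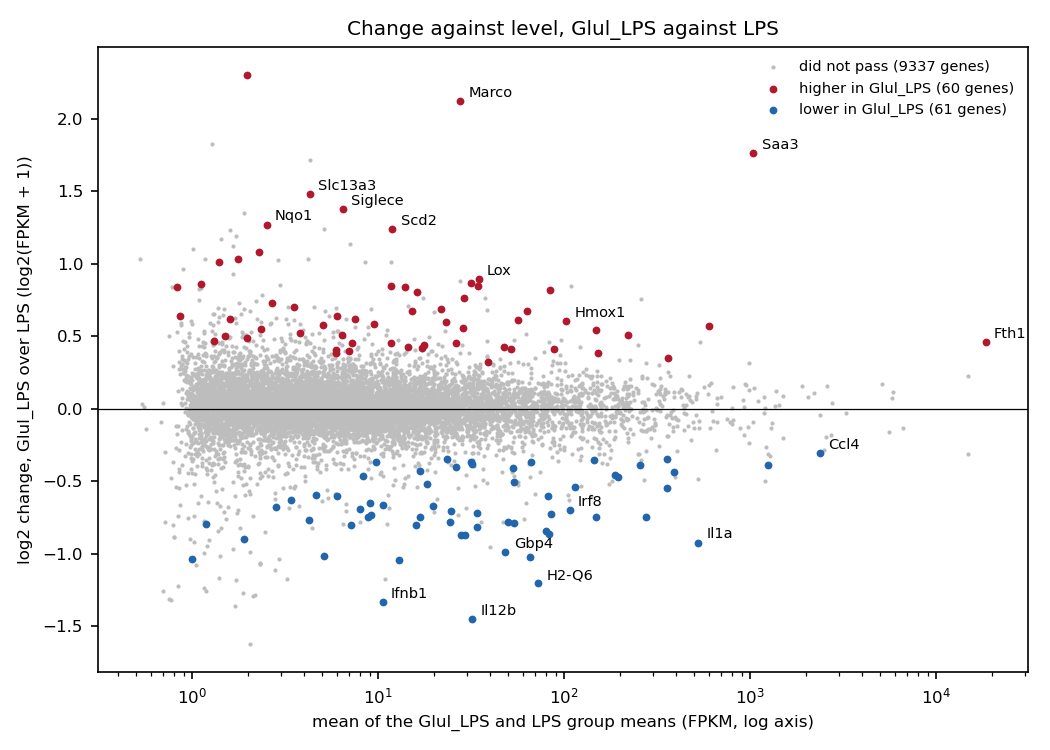
Log2 change of Glul_LPS over LPS (vertical axis, on log2(FPKM + 1)) against the mean of both group means (horizontal axis, FPKM, log axis) for the 9458 genes compared. Red points are the 60 genes higher and blue points the 61 genes lower in Glul_LPS at an adjusted p under 0.05, and grey points are the 9337 genes that did not pass. Most points lie within 0.5 of 0, and the genes past the threshold spread over the whole range of levels. Marco and Saa3 stand out among abundant genes, and the highest red point is Mir199a-1, which rests on few fragments.

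Marco, the scavenger receptor of macrophages that binds bacteria and particles, was raised several-fold. It stood at 40.5 and 50.4 FPKM in Glul_LPS, at 9.39 and 9.81 FPKM in LPS, and at 14.4 FPKM in both control libraries. The Glul_LPS libraries were thus above LPS and control alike. The mean was 45.5 ± 6.97 FPKM in Glul_LPS and 9.60 ± 0.300 FPKM in LPS (SD, n = 2 each), a ratio of 4.74, with a log2 change of 2.12 (SE 0.10, adjusted p = 0.00241). Without LPS B it missed the threshold (adjusted p = 0.0845). The gene lies on the minus strand at chr1:120474538-120505024 of GRCm38. Another member of the scavenger list, Stab1, a receptor that clears modified lipoproteins and matrix fragments, rose as well (32.9 and 35.2 FPKM in Glul_LPS against 22.5 and 23.2 FPKM in LPS, log2 change 0.55, adjusted p = 0.0268). Its Glul_LPS level lay below the 70.6 and 79.0 FPKM of control. Of the 37 scavenger and pattern recognition receptors among the genes compared, 2 rose and 2 fell, and their median log2 change was 0.03, against 0.02 over all 9458 genes. The members that fell were Itgax, the integrin subunit CD11c, and Clec5a, a lectin that signals through DAP12.

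Saa3, an acute-phase protein that macrophages secrete, had the next largest change among abundant genes. It stood at 1601 and 1616 FPKM in Glul_LPS, at 441 and 507 FPKM in LPS, and at 324 and 359 FPKM in control. The 2 Glul_LPS libraries were alike and above all others. The means were 1609 ± 10.2 FPKM in Glul_LPS and 474 ± 46.5 FPKM in LPS (SD, n = 2 each), with a log2 change of 1.76 (SE 0.08, adjusted p = 0.00241). Saa3 lies at chr7:46711998-46715700 on the minus strand. Of the 22 acute-phase and antimicrobial genes, 4 rose and 0 fell, and the median was 0.02. The members went both ways, with changes from −1.07 to 1.76 and an unadjusted p under 0.05 for 6 above and 6 below 0. With 1 library left out, 1 to 3 of them passed, all higher, and voom called 6 higher and 4 lower.

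The other 3 of these genes encode secreted proteins. Lcn2, a siderophore-binding protein that withholds iron from bacteria, stood at 41.9 and 47.0 FPKM in Glul_LPS against 24.9 and 23.7 FPKM in LPS (log2 change 0.84, adjusted p = 0.0253). Slpi, an inhibitor of leukocyte proteases, stood at 79.7 and 75.7 FPKM in Glul_LPS against 47.5 and 49.3 FPKM in LPS (log2 change 0.67, adjusted p = 0.0256). Wfdc17, a small protein with the same kind of domain as Slpi, stood at 727 and 718 FPKM in Glul_LPS against 449 and 524 FPKM in LPS (log2 change 0.57, adjusted p = 0.0339).

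Further genes that rose belong to the macrophage surface and its secreted products. Siglece, an inhibitory receptor that binds sialic acid, stood at 8.04 and 11.5 FPKM in Glul_LPS against 2.45 and 3.86 FPKM in LPS (log2 change 1.38, adjusted p = 0.0436). Its replicates spread widely, and it passed in 0 of the 6 fits with a library left out. Cd5l, a secreted protein of tissue macrophages that binds lipids, stood at 35.8 and 46.4 FPKM in Glul_LPS, at 20.3 and 23.6 FPKM in LPS, and at 39.8 and 37.3 FPKM in control. The Glul_LPS level of Cd5l thus lay near that of control (log2 change over LPS 0.87, adjusted p = 0.0447). Tgfbi, a matrix protein induced by TGF-beta, stood at 104 and 112 FPKM in Glul_LPS against 55.1 and 66.8 FPKM in LPS (log2 change 0.82, adjusted p = 0.0248). Lox, which crosslinks collagen, stood at 48.2 and 42.7 FPKM in Glul_LPS against 26.1 and 22 FPKM in LPS (log2 change 0.89, adjusted p = 0.0253). Igfbp4, which binds insulin-like growth factors, stood at 34.4 and 38.8 FPKM in Glul_LPS against 20.8 and 21.3 FPKM in LPS (log2 change 0.76, adjusted p = 0.0202).

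Slc13a3, a carrier of dicarboxylates such as succinate, rose in Glul_LPS. It stood at 6.24 and 7.38 FPKM in Glul_LPS, at 2.07 and 1.52 FPKM in LPS, and at 0.923 and 0.620 FPKM in control (log2 change over LPS 1.48, SE 0.14, adjusted p = 0.0202). Ednrb, a receptor for endothelins, stood at 18.9 and 17.6 FPKM in Glul_LPS against 9.12 and 10.4 FPKM in LPS (log2 change 0.84, adjusted p = 0.0243). Sema4c, a transmembrane semaphorin, and Gja1, the gap junction protein connexin 43, rose by 0.67 and 0.64. Mir199a-1, the gene of a microRNA precursor, also passed (adjusted p = 0.0152), but on 4 and 5 fragments in Glul_LPS against 0 and 0 in LPS, and 2 and 3 in control. At so few fragments no fold is given.

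**Figure D2:**
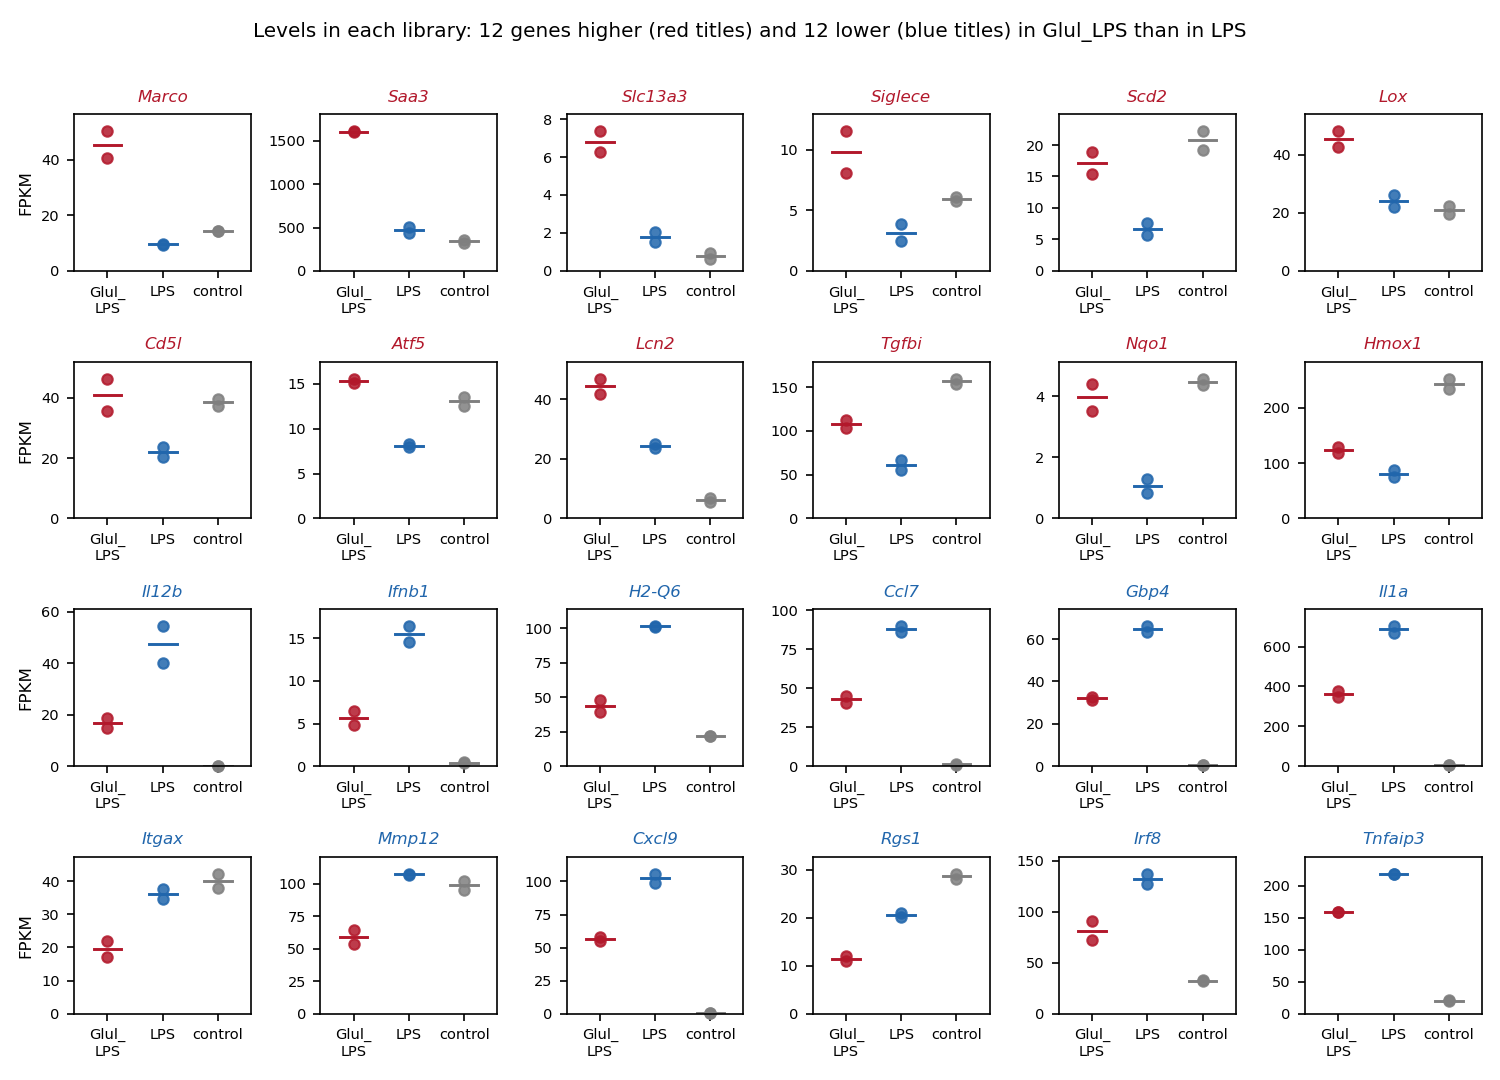
FPKM (vertical axes, each from 0) of 24 genes in each library, for Glul_LPS (red), LPS (blue) and control (grey). Points are libraries and bars are group means of 2. Red titles mark 12 genes higher and blue titles 12 genes lower in Glul_LPS than in LPS. Scd2, Cd5l and Nqo1 in Glul_LPS lie close to control, while Il12b, Ifnb1, Gbp4, Il1a, Ccl7 and Cxcl9 lie between the near-zero control and LPS.

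Of 30 listed targets of NRF2, the factor that induces detoxifying and antioxidant enzymes, 9 rose and 0 fell. The median log2 change was 0.30, against 0.02 over all 9458 genes. Of the 30, 27 lay above 0, against 5201 of all 9458 genes. Both Glul_LPS libraries were above both LPS libraries for 26 of them, or 86.7%, against 27.7% of all genes tested. In the fits that leave out 1 library, 0 to 2 of them passed and the median ran between 0.26 and 0.34. Voom called 15 of the 26 it tested, all higher. Against control, which both values share, the median of the list was −0.18 in Glul_LPS and −0.53 in LPS.

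Enzymes that reduce quinones, peroxides and glutathione were among those that rose. Nqo1, a quinone reductase and a classical NRF2 target, stood at 3.52 and 4.40 FPKM in Glul_LPS, at 0.840 and 1.28 FPKM in LPS, and at 4.58 and 4.38 FPKM in control (log2 change over LPS 1.27, SE 0.13, adjusted p = 0.0221). Its Glul_LPS libraries overlapped those of control and lay above both LPS libraries. Gsta3, a glutathione transferase, stood at 1.26 and 1.43 FPKM in Glul_LPS against 0.300 and 0.310 FPKM in LPS (log2 change 0.84, adjusted p = 0.0229), and the change on this scale understates a ratio of means of 4.40. Cat, catalase, which breaks down hydrogen peroxide, stood at 62.8 and 73.9 FPKM in Glul_LPS against 43.8 and 44.7 FPKM in LPS (log2 change 0.61, adjusted p = 0.0335). Prdx1, a peroxiredoxin, stood at 407 and 406 FPKM in Glul_LPS against 319.8 and 319 FPKM in LPS (log2 change 0.35, SE 0.04, adjusted p = 0.0253). The change of Prdx1 was small. Its replicates were nearly identical, but its call did not hold in the fits with a library left out. Gsr, glutathione reductase, rose by 0.41 (adjusted p = 0.0378), and Pgd, an NADPH-making enzyme of the pentose phosphate pathway, by 0.42 (adjusted p = 0.0253). Both were picked for the text after their values were seen, as was Gclm, a subunit of the enzyme that starts glutathione synthesis, which stood at 11.1 and 11.9 FPKM in Glul_LPS against 6.23 and 7.29 FPKM in LPS and just missed the threshold (log2 change 0.69, adjusted p = 0.0533, but 0.000479 in voom). Nfe2l2, the gene of NRF2 itself, stood at 64.7 and 72.9 FPKM in Glul_LPS against 63.2 and 58.2 FPKM in LPS, and did not pass (log2 change 0.18, adjusted p = 0.324).

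The promoter of Prdx1 is shown because it holds a match to the core of the antioxidant response element (TGACNNNGC on either strand), the site that NRF2 binds with its MAF partners. The window runs from 250 bases before to 50 bases after the gene's start in RefSeq (GRCm38.p6, chr4:116685349-116685648, plus strand). Capitals mark the element's core, here on the opposite strand, together with 2 matches to the AP-1 site TGANTCA, 1 of which overlaps the core:
Prdx1: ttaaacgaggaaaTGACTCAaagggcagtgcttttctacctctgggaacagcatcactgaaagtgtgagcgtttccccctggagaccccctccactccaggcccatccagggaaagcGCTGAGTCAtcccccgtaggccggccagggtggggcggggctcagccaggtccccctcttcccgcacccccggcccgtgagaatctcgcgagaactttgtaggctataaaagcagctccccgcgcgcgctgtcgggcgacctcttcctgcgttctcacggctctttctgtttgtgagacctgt

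**Figure D3:**
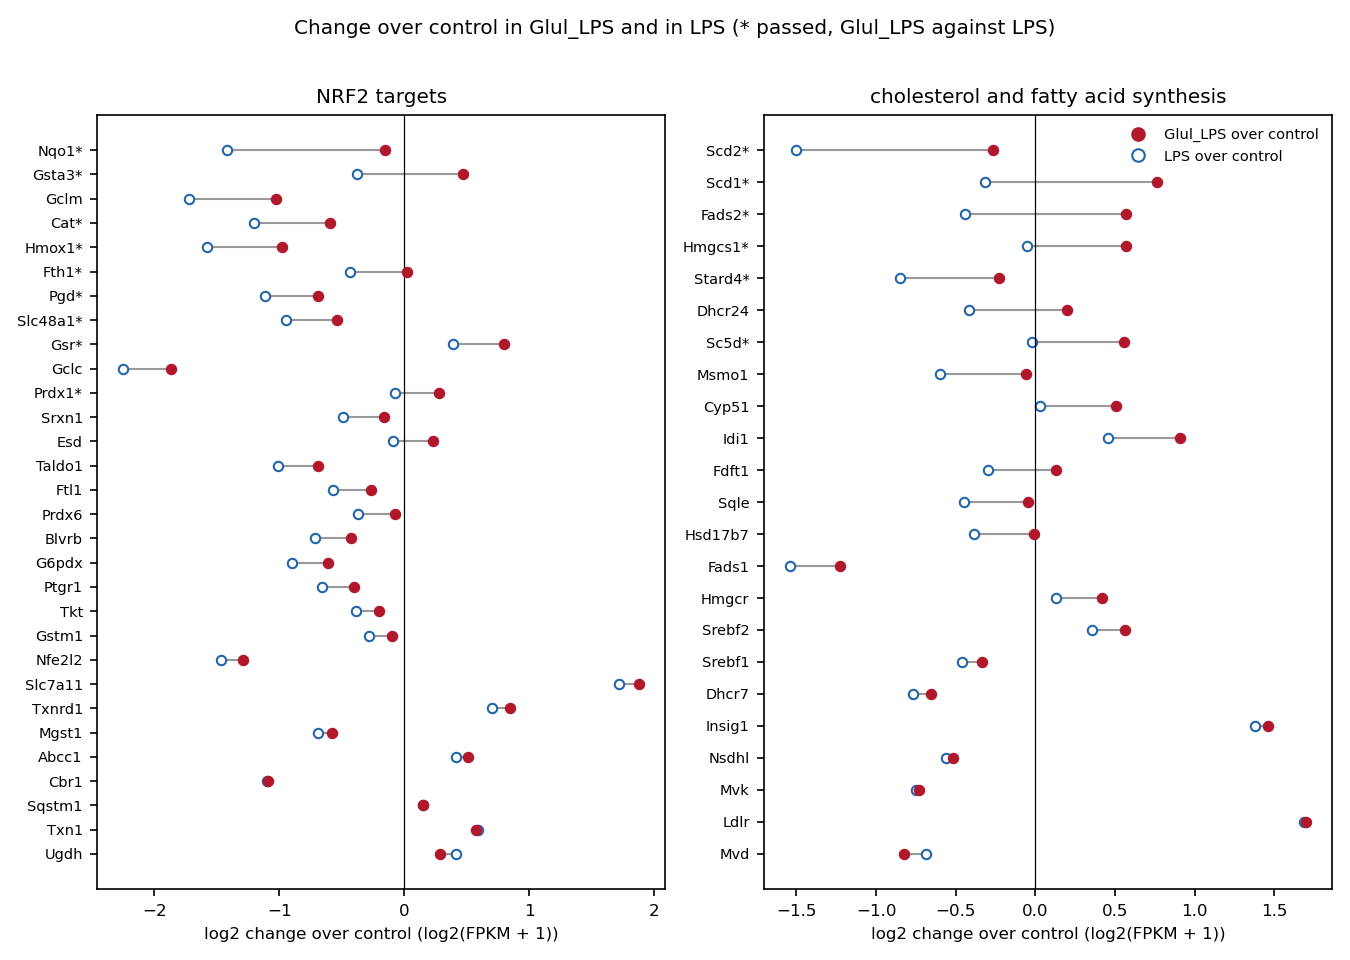
Log2 change over control (horizontal axes, on log2(FPKM + 1)) of each listed NRF2 target (left) and each listed gene of cholesterol and fatty acid synthesis (right), in Glul_LPS (red, filled) and in LPS (blue, open), in order of their difference. Both values of a gene share the control libraries. Asterisks mark the 9 NRF2 targets and 6 synthesis genes that passed between Glul_LPS and LPS, and in these the red point lies right of the blue one.

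Of 23 genes of cholesterol and fatty acid synthesis, 6 rose and 0 fell, with a median log2 change of 0.40. Of the 23, 22 lay above 0, against 5201 of all 9458 genes. Leaving out 1 library, 0 to 2 passed and the median ran between 0.29 and 0.53, and voom called 8 of the 18 it tested. Against the shared control, the median was 0.13 in Glul_LPS and −0.41 in LPS. The 3 largest changes were those of the fatty acid desaturases, which put double bonds into fatty acids. Scd2 stood at 15.4 and 18.9 FPKM in Glul_LPS, at 5.76 and 7.68 FPKM in LPS, and at 22.2 and 19.2 FPKM in control (log2 change over LPS 1.24, SE 0.15, adjusted p = 0.0253). Scd1 stood at 2.88 and 4.06 FPKM in Glul_LPS against 1.22 and 0.979 FPKM in LPS (log2 change 1.08, adjusted p = 0.0289). Fads2 stood at 1.75 and 2.67 FPKM in Glul_LPS against 0.700 and 0.465 FPKM in LPS (log2 change 1.01, adjusted p = 0.0457). All 3 were low to moderate in level, with Glul_LPS C above Glul_LPS B.

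Of the sterol branch, 3 genes rose. Hmgcs1, which makes the precursor that HMG-CoA reductase uses, stood at 8.84 and 9.65 FPKM in Glul_LPS, at 6.23 and 5.12 FPKM in LPS, and at 5.90 and 5.88 FPKM in control (log2 change over LPS 0.62, adjusted p = 0.0457). Sc5d, a late enzyme of cholesterol synthesis, stood at 5.87 and 6.67 FPKM in Glul_LPS against 3.99 and 3.75 FPKM in LPS (log2 change 0.58, adjusted p = 0.0348). Stard4, a carrier of cholesterol between membranes, rose by 0.62 (adjusted p = 0.0349). Exons of Hmgcs1 overlap those of another gene over 12.1% of their bases, and without a known strand setting their reads cannot be told apart. The promoter of Hmgcs1 is shown for its match to the sterol regulatory element (TCACNCCAC on either strand), the site of the SREBP factors, in capitals (RefSeq, GRCm38.p6, chr13:119690101-119690400, plus strand):
Hmgcs1: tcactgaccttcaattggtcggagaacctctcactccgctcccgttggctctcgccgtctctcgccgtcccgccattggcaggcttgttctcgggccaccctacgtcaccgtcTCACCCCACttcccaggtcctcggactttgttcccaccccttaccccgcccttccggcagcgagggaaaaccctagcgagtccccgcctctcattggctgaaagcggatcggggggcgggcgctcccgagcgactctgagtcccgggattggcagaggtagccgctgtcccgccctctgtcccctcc

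The list of lipid efflux and storage genes had 1 of 25 members past the threshold, Pltp, which transfers phospholipids to lipoproteins. It stood at 168 and 184 FPKM in Glul_LPS against 114 and 127 FPKM in LPS (log2 change 0.54, adjusted p = 0.0395). Exons of Pltp overlap Ctsa over 19.3% of their bases. The median of that list was 0.02, as over all genes.

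Iron and heme handling overlaps with the NRF2 targets, and of its 23 genes 4 rose and 1 fell, with a median of 0.20. Fth1, the ferritin heavy chain, was the most abundant gene past the threshold, at 21239 and 21534 FPKM in Glul_LPS, 15043 and 16036 FPKM in LPS, and 21109 and 20845 FPKM in control (log2 change over LPS 0.46, adjusted p = 0.0318). Hmox1, which degrades heme to iron, carbon monoxide and biliverdin, stood at 117 and 129 FPKM in Glul_LPS, at 74.8 and 87.1 FPKM in LPS, and at 253 and 234 FPKM in control (log2 change over LPS 0.61, adjusted p = 0.0436). Slc48a1, a heme transporter of the phagolysosome, stood at 101 FPKM in both Glul_LPS libraries against 73.8 and 77.6 FPKM in LPS (log2 change 0.41, adjusted p = 0.0243). Glul_LPS lay between LPS and control for Hmox1 and Slc48a1 and at the control level for Fth1. Hamp, which encodes the iron hormone hepcidin, fell (adjusted p = 0.0436) on 2 and 2 fragments in Glul_LPS against 14 and 9 in LPS, too few for a fold, and missed the threshold in voom (adjusted p = 0.0658). Where 1 library was dropped, 0 or 1 of the list's genes were higher and 0 were lower.

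Of the genes that specify macrophages, 2 of 26 rose and 1 fell, and the median was 0.12. Neither rise held as a call in the fits with a library left out, where the median ran between 0.12 and 0.14. Cebpa, a transcription factor of the myeloid lineage, stood at 3.43 and 3.78 FPKM in Glul_LPS, at 1.96 and 1.62 FPKM in LPS, and at 63.1 and 61.9 FPKM in control (log2 change over LPS 0.73, adjusted p = 0.0237). The Glul_LPS level was thus a small fraction of that in control. Ms4a7, a membrane protein of mature macrophages, rose by 0.38 (adjusted p = 0.0277), and Irf8 fell, as given below. Csf1r, at the values above, did not pass (log2 change 0.21, adjusted p = 0.159). Among the genes of the mitochondrial genome, the 16S ribosomal RNA mt-Rnr2 rose (257 and 262 FPKM in Glul_LPS against 186 and 178 FPKM in LPS, log2 change 0.51, adjusted p = 0.0202). All 14 mitochondrial genes lay above 0, against 5201 of all 9458 genes, with a median of 0.17. Atf5, a transcription factor of the stress response to unfolded mitochondrial proteins, stood at 15.6 and 15.1 FPKM in Glul_LPS against 7.91 and 8.27 FPKM in LPS (log2 change 0.85, SE 0.06, adjusted p = 0.0152). The pro-apoptotic stress factor Ddit3 fell by 0.37 (adjusted p = 0.0417), and of 36 genes of the ATF4 and unfolded protein response these 2 passed. Exons of Ddit3 overlap other genes over 10.9% of their bases.

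Of 30 inflammatory cytokine genes, 5 fell and 0 rose. Their median log2 change was −0.18, with 22 below 0 and 8 above, against 4257 below and 5201 above of all 9458 genes. Both Glul_LPS libraries were below both LPS libraries for 17, or 56.7%, against 19.3% of all genes tested, and above them for 7, or 23.3%, against 27.7%. With 1 library left out, 0 to 4 passed and the median ran between −0.27 and −0.12, and voom called 11 lower and 1 higher of 26. Against the shared control, the median was 2.92 in Glul_LPS and 3.29 in LPS, so most of these genes stood far above control in both. Il12b, the p40 subunit shared by interleukins 12 and 23, had the largest fall. It stood at 14.6 and 18.5 FPKM in Glul_LPS, at 54.5 and 40.2 FPKM in LPS, and at 0.163 and 0.147 FPKM in control (log2 change over LPS −1.45, SE 0.16, adjusted p = 0.0242). Its replicates spread widely, and it passed in 0 of the 6 fits with a library left out, where the highest adjusted p was 0.0988. Ifnb1, interferon beta, stood at 6.42 and 4.77 FPKM in Glul_LPS, at 14.6 and 16.5 FPKM in LPS, and at 0.357 and 0.462 FPKM in control (log2 change over LPS −1.33, SE 0.13, adjusted p = 0.0207).

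Il1a, interleukin 1 alpha, was the most abundant cytokine gene past the threshold. It stood at 375 and 348 FPKM in Glul_LPS, at 703 and 669 FPKM in LPS, and at 4.88 and 3.77 FPKM in control. Both groups lay far above control (log2 change −0.92, SE 0.10, adjusted p = 0.0238). Of the exon bases of Il1a, 11.2% lie in exons of Gm14023 too. Il27, the p28 subunit of interleukin 27, stood at 289 and 288 FPKM in Glul_LPS against 439 and 408 FPKM in LPS (log2 change −0.55, adjusted p = 0.0202), with 10.1% of its exon bases in Apobr. Tnfsf4, the ligand of the costimulatory receptor OX40, stood at 15.1 and 14.7 FPKM in Glul_LPS against 23.3 and 20.4 FPKM in LPS (log2 change −0.52, adjusted p = 0.0457).

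The promoter of Il1a is shown because its start region holds a match to the AP-1 site (TGANTCA), in capitals, which was commoner among genes that fell (RefSeq, GRCm38.p6, chr2:129309923-129310222, minus strand):
Il1a: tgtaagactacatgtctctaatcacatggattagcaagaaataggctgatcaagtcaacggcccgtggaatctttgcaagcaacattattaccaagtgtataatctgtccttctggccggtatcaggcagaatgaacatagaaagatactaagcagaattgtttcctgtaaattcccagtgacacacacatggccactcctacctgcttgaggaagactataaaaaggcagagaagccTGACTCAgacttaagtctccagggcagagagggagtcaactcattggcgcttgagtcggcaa

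Several cytokines most often measured after LPS did not pass. Tnf stood at 418 and 452 FPKM in Glul_LPS against 626 and 592 FPKM in LPS (log2 change −0.49, adjusted p = 0.0773). Il1b stood at 1112 and 1151 FPKM in Glul_LPS against 1438 and 1399.8 FPKM in LPS (log2 change −0.33, adjusted p = 0.266). Il6 stood at 95.7 and 99.5 FPKM in Glul_LPS against 118 and 96.8 FPKM in LPS, so its groups overlapped (log2 change −0.13, adjusted p = 0.551). Il10, the anti-inflammatory interleukin, stood at 26.7 and 27.4 FPKM in Glul_LPS against 23.5 and 20.8 FPKM in LPS (log2 change 0.28, adjusted p = 0.135). Nos2, which makes nitric oxide, stood at 79.8 and 86.7 FPKM in Glul_LPS against 144 and 116 FPKM in LPS (log2 change −0.63, adjusted p = 0.0671). Ptgs2, the inducible cyclooxygenase, stood at 153 and 145 FPKM in Glul_LPS against 237 and 188 FPKM in LPS (log2 change −0.50, adjusted p = 0.347). Among these 6 only the libraries of Il6 overlapped, and a p above the threshold does not show that a level was equal. In voom 4 of them passed as lower, with an adjusted p of 0.00028 for the log2 change of Tnf, 0.0188 for the log2 change of Il1b, 0.000269 for the log2 change of Nos2 and 0.02 for the log2 change of Ptgs2.

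Of 21 chemokines, 5 fell and 0 rose, with a median of −0.31. Both Glul_LPS libraries were below both LPS libraries for 15, or 71.4%, against 19.3% of all genes tested, and above them for 3. When 1 library was left out, 0 to 3 passed and the median ran between −0.37 and −0.28, and voom called 10, all lower. Ccl7, which attracts monocytes, stood at 40.6 and 45.2 FPKM in Glul_LPS, at 86.4 and 89.9 FPKM in LPS, and at 1.47 and 0.936 FPKM in control (log2 change over LPS −1.02, SE 0.12, adjusted p = 0.0248). Cxcl9, an interferon-induced chemokine for T cells, stood at 58.1 and 55.2 FPKM in Glul_LPS, at 106 and 99.0 FPKM in LPS, and at 0.479 and 0.363 FPKM in control (log2 change over LPS −0.84, SE 0.07, adjusted p = 0.0152). For both genes, Glul_LPS libraries lay far below LPS libraries and far above control. Ccl6 stood at 216 and 194 FPKM in Glul_LPS, at 321 and 369.7 FPKM in LPS, and at 587 and 588 FPKM in control (log2 change over LPS −0.75, adjusted p = 0.0238). It was the one chemokine past the threshold that was highest in control. Ccl4, which attracts macrophages and T cells, stood at 2154 and 2071 FPKM in Glul_LPS against 2646 and 2578 FPKM in LPS (log2 change −0.31, adjusted p = 0.0457). Cxcl11, named after its value was seen, fell by 0.82 (adjusted p = 0.0349), but 41.7% of its exon bases overlap another gene.

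The promoter of Cxcl9 is shown as one that holds matches to 3 of the motifs searched. Capitals mark, 5′ to 3′, the interferon-stimulated response element (GAAANNGAA), the NF-kB site (GGGANTTCC) and the AP-1 site (RefSeq, GRCm38.p6, chr5:92328030-92328329, minus strand):
Cxcl9: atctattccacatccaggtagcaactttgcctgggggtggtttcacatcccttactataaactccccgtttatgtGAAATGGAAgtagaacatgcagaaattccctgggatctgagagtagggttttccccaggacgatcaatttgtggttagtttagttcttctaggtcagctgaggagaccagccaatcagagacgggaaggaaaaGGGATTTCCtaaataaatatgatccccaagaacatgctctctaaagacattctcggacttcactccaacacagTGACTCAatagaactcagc

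**Figure D4:**
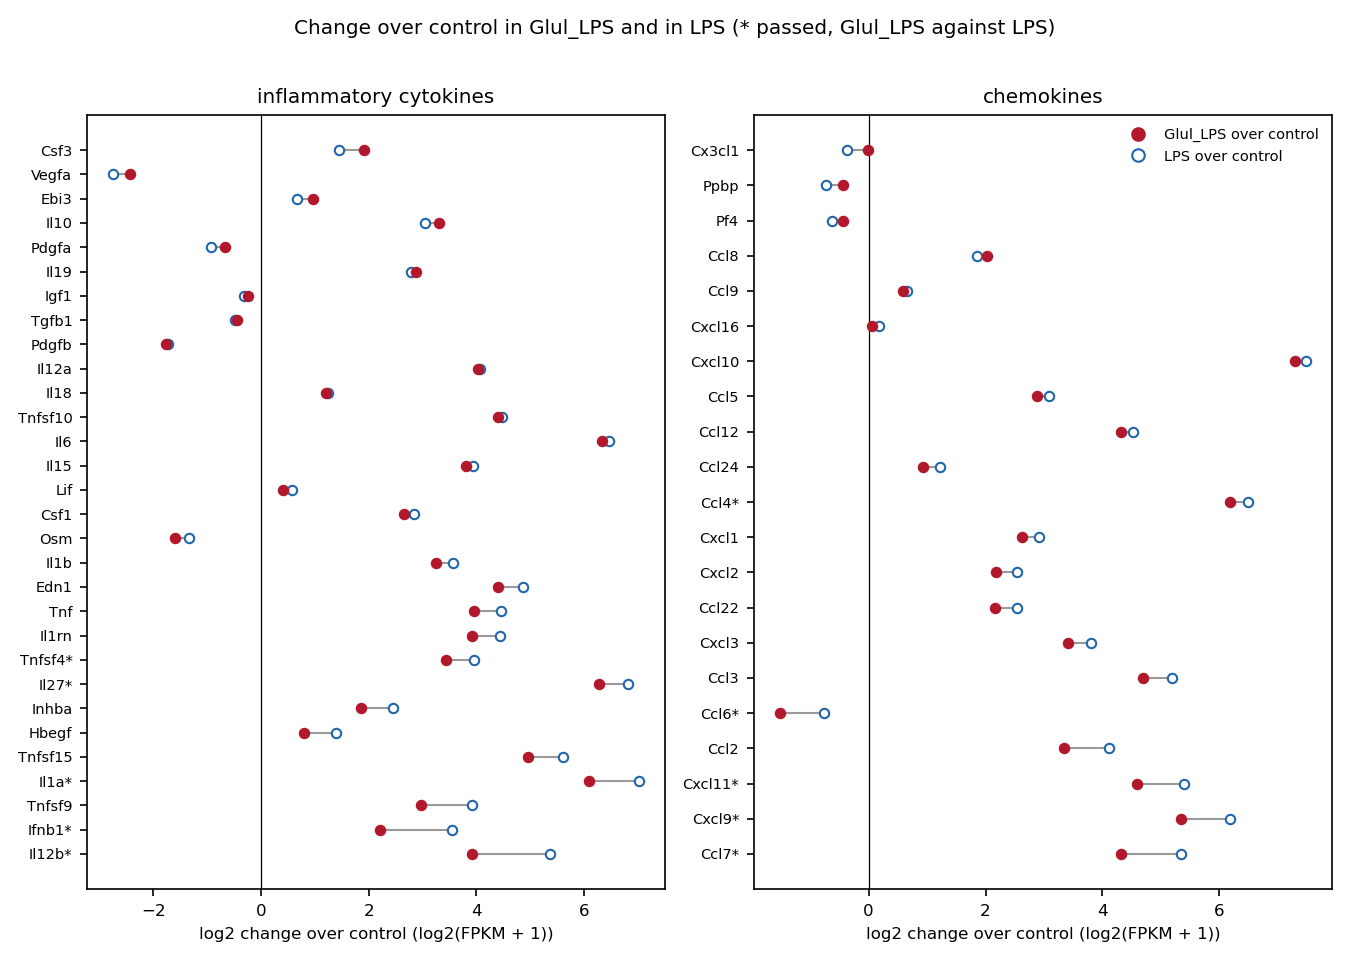
Log2 change over control (horizontal axes, on log2(FPKM + 1)) of each listed cytokine (left) and chemokine (right) in Glul_LPS (red, filled) and in LPS (blue, open), in order of their difference. Both values of a gene share the control libraries. Asterisks mark the 5 cytokines and 5 chemokines that passed between Glul_LPS and LPS, and in these the red point lies left of the blue one.

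Most genes induced by interferons lay slightly lower in Glul_LPS, and few passed the threshold. Of 46 listed genes, 2 fell and 0 rose, with a median of −0.15, and 5 lay above 0, against 5201 of all 9458 genes. Both Glul_LPS libraries were below both LPS libraries for 33, or 71.7%, against 19.3% of all genes tested, and above them for 1. In the fits without 1 of the libraries, 0 or 1 passed and the median ran between −0.19 and −0.11, while voom called 16 of 45, all lower. Irf8, a transcription factor of interferon responses and of the monocyte lineage, stood at 90.9 and 72.3 FPKM in Glul_LPS, at 137 and 128 FPKM in LPS, and at 31.9 and 32.8 FPKM in control (log2 change over LPS −0.70, adjusted p = 0.0457). Oasl1, an antiviral protein that limits translation of Irf7, stood at 339.6 and 322 FPKM in Glul_LPS against 442 and 453 FPKM in LPS (log2 change −0.43, adjusted p = 0.0378). Irf3, which carries the signal for interferon beta, did not pass (6.57 and 6.48 FPKM in Glul_LPS against 5.72 and 6.18 FPKM in LPS, log2 change 0.12, adjusted p = 0.447).

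Of the 15 guanylate-binding proteins and immunity-related GTPases, which attack the vacuoles of intracellular microbes, 2 fell and the median was −0.19. Of the 15, 0 lay above 0, against 5201 of all 9458 genes. Gbp4 stood at 31.4 and 32.7 FPKM in Glul_LPS, at 66.1 and 63.1 FPKM in LPS, and at 0.350 and 0.316 FPKM in control (log2 change over LPS −0.99, SE 0.06, adjusted p = 0.00488). It had the smallest adjusted p among the genes that fell. Gbp8 stood at 6.95 and 6.31 FPKM in Glul_LPS against 12.1 and 11.2 FPKM in LPS (log2 change −0.73, adjusted p = 0.0243). The 2 genes lie within the same stretch of chromosome 5, and 7.70% and 18.1% of their 50-base stretches occur in other genes. Leaving out each library in turn, 0 to 2 of the 15 passed.

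Of 21 MHC class I genes, whose products show peptides to killer T cells, 3 fell and the median was −0.16. Of the 21, 0 lay above 0, against 5201 of all 9458 genes. H2-Q6 stood at 48.2 and 38.9 FPKM in Glul_LPS, at 102 and 101 FPKM in LPS, and at 21.5 and 21.8 FPKM in control (log2 change over LPS −1.21, SE 0.10, adjusted p = 0.0152). H2-Q7 stood at 20.6 and 20.02 FPKM in Glul_LPS against 35.7 and 40.2 FPKM in LPS (log2 change −0.87, adjusted p = 0.0272). H2-K1, a classical class I heavy chain, stood at 1089 and 1065 FPKM in Glul_LPS, at 1397 and 1421 FPKM in LPS, and at 1288 and 1289.7 FPKM in control (log2 change over LPS −0.39, adjusted p = 0.0243). H2-K1 in Glul_LPS was thus below LPS and control alike. The class I genes resemble each other: 32.0% of the 50-base stretches of H2-Q6, 26.4% of H2-Q7 and 9.63% of H2-K1 occur in other genes, so their single values are uncertain. H2-M2, a class I gene outside the list, fell by 0.79 (adjusted p = 0.0272). With 1 library left out, 0 to 2 of the listed genes passed. In the list of MHC class II and costimulation, 1 of 17 fell, Cd80, a ligand of CD28 on T cells, at 15.6 and 14.3 FPKM in Glul_LPS against 25.8 and 23.1 FPKM in LPS (log2 change −0.67, adjusted p = 0.0237).

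Matrix and adhesion genes had 4 of 40 members past the threshold, all lower, with a median of −0.10. That median ran between −0.10 and −0.05 with 1 library left out. Mmp12, the macrophage elastase, stood at 64.0 and 53.4 FPKM in Glul_LPS, at 108 and 107 FPKM in LPS, and at 102 and 95 FPKM in control (log2 change over LPS −0.86, SE 0.09, adjusted p = 0.0221). F3, tissue factor, which starts blood clotting, stood at 2.93 and 2.83 FPKM in Glul_LPS against 5.55 and 5.69 FPKM in LPS (log2 change −0.77, adjusted p = 0.0323). Plaur, the urokinase receptor, stood at 94.9 and 90.7 FPKM in Glul_LPS against 137 and 134 FPKM in LPS (log2 change −0.54, adjusted p = 0.0221). Mmp12 in Glul_LPS lay below control, while F3 and Plaur lay above it. Icam1, a ligand of leukocyte integrins, stood at 224 and 217 FPKM in Glul_LPS against 294 and 284 FPKM in LPS (log2 change −0.39, adjusted p = 0.0391). Exons of Icam1 overlap another gene over 11.7% of their bases. The integrin gene Itgax stood at 21.9 and 17 FPKM in Glul_LPS, at 37.5 and 34.7 FPKM in LPS, and at 42.3 and 37.9 FPKM in control (log2 change over LPS −0.87, adjusted p = 0.0363). It is also the most abundant of the dendritic cell markers, whose 10 genes summed to 34.5 and 32.5 FPKM in Glul_LPS against 49.8 and 45.4 FPKM in LPS. The lower sum came from Itgax and not from the markers as a set. Of the 4 markers among the genes compared, 1 lay above 0 and 3 below, with changes from −0.87 to 0.52. Voom called 1 of them higher and 1 lower. None of the 10 was at 0, and the part of such cells in the result was not tested.

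Negative regulators and immediate early genes gave few calls. Tnfaip3, or A20, the ubiquitin-editing inhibitor of NF-kB, stood at 159 and 158 FPKM in Glul_LPS against 219 FPKM in both LPS libraries (log2 change −0.46, SE 0.05, adjusted p = 0.0243). With Icam1 it was 1 of 2 genes to fall among 26 of the NF-kB list, whose median was −0.06. Rgs1, a brake on chemokine receptor signalling, stood at 10.9 and 11.9 FPKM in Glul_LPS, at 21 and 20.2 FPKM in LPS, and at 28.0 and 29.1 FPKM in control (log2 change over LPS −0.80, SE 0.06, adjusted p = 0.0152). Among 23 immediate early and AP-1 genes, Maff and Atf3 fell and Fos rose, with a median of −0.13. Maff, a small MAF protein, stood at 12.3 FPKM in both Glul_LPS libraries against 20.8 and 21.8 FPKM in LPS (log2 change −0.74, adjusted p = 0.0202). Fos, a subunit of AP-1, stood at 24.8 and 29.6 FPKM in Glul_LPS, at 16.5 and 16.3 FPKM in LPS, and at 172 and 173 FPKM in control (log2 change over LPS 0.69, adjusted p = 0.0253). Atf3, a repressor of inflammatory genes, fell by 0.35 (adjusted p = 0.0253).

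Of the 6 motifs searched in promoters, the AP-1 site was the one whose share differed most between the genes that rose and those that fell. Promoter windows from RefSeq (GRCm38.p6, 300 bases each, both strands searched) were found for 44 of the 60 genes that rose (56 windows), 37 of the 61 that fell (47 windows) and 6858 of the genes compared (8724 windows). TGANTCA occurred in 8.93% of the windows of genes that rose, in 29.8% of those of genes that fell, in 5.30% of those of the genes compared and in 7.81% of all 32851 windows. The 14 genes behind the 29.8% included Il1a, Cxcl9, Plaur, Mmp12, F3, Itgax, Cd80 and Tnfaip3. The antioxidant core TGACNNNGC, which can overlap an AP-1 site, occurred in 17.9% of windows of genes that rose, 17.02% of genes that fell and 14.9% of the genes compared. The interferon-stimulated element GAAANNGAA occurred in 10.7%, 8.51% and 7.86% of the same windows, and the NF-kB site GGGANTTCC in 0%, 6.38% and 2.54%. The sterol element TCACNCCAC occurred in 3.57%, 2.13% and 1.13%, or 2, 1 and 99 windows. The 6.38% of the NF-kB site was 3 windows. The E-box of lysosomal genes, TCACGTGA, occurred in 0%, 4.26% and 2.13%, or 0, 2 and 186 windows. These shares are descriptions of letters in short windows, and a window with no match says nothing about the factor. The promoter of Plaur shows the same AP-1 letters as that of Il1a, in capitals (chr7:24462233-24462532, plus strand):
Plaur: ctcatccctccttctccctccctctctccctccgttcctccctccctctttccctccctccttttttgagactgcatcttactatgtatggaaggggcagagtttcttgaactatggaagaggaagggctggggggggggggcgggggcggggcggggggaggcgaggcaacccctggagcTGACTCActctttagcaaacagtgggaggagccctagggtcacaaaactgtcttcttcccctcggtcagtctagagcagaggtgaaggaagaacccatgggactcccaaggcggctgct

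The lists of central metabolism, glutamine included, gave no call in limma, while Pgd of the pentose phosphate pathway rose as a listed NRF2 target. Of 21 genes that make, break down or carry glutamine and glutamate, 0 passed, with a median of 0.07, and changes from −0.27 to 0.69, the highest being that of Gclm. The same count of 0 held for 32 glycolysis and HIF genes (median 0.06), 28 genes of the tricarboxylic acid cycle and itaconate (median 0.01), 37 subunits of the respiratory chain (median 0.01, range −0.15 to 0.15), 16 genes of arginine and polyamine metabolism (median −0.01) and 41 lysosomal genes (median 0.03). An unadjusted p under 0.05 in limma was met by 6 glutamine genes above 0 and 3 below, 8 and 4 of glycolysis, 5 and 1 of the cycle, 1 and 0 of the respiratory chain, 0 and 3 of arginine metabolism and 6 and 6 lysosomal genes, against 1083 above and 752 below of the 9458 genes compared. Voom called 1 glutamine gene higher, 2 glycolysis genes higher and 3 lower, 0 and 2 of arginine metabolism, 3 and 4 lysosomal genes, and 0 of the cycle and respiratory chain genes.

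The lists of Toll-like receptor 4 signalling and of alternative activation gave no call in limma either. Of 28 components of Toll-like receptor 4 signalling, 0 passed, with a median of −0.03, and Tlr4 itself stood at 8.98 and 10.3 FPKM in Glul_LPS against 8.06 and 8.45 FPKM in LPS (log2 change 0.20, adjusted p = 0.283). At an unadjusted p under 0.05, 3 of the 28 lay above 0 and 4 below, and voom called 2, both higher. Of 13 genes of alternative activation, 0 passed, with a median of −0.28 that ran between −0.29 and −0.11 with 1 library left out, while 2 lay above 0 and 5 below at an unadjusted p under 0.05 and voom called 1 higher and 2 lower. Mrc1, the mannose receptor, stood at 46.1 and 53.0 FPKM in Glul_LPS against 43.4 and 46.3 FPKM in LPS (log2 change 0.14, adjusted p = 0.400). Other genes that the text was to name whatever their result also did not pass: Il12a, Irf7, Nfkbia, Slc1a5, Hif1a and Keap1 had log2 changes between −0.13 and 0.07, and Arg1 and Il23a were not among the genes compared.

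**Figure D5:**
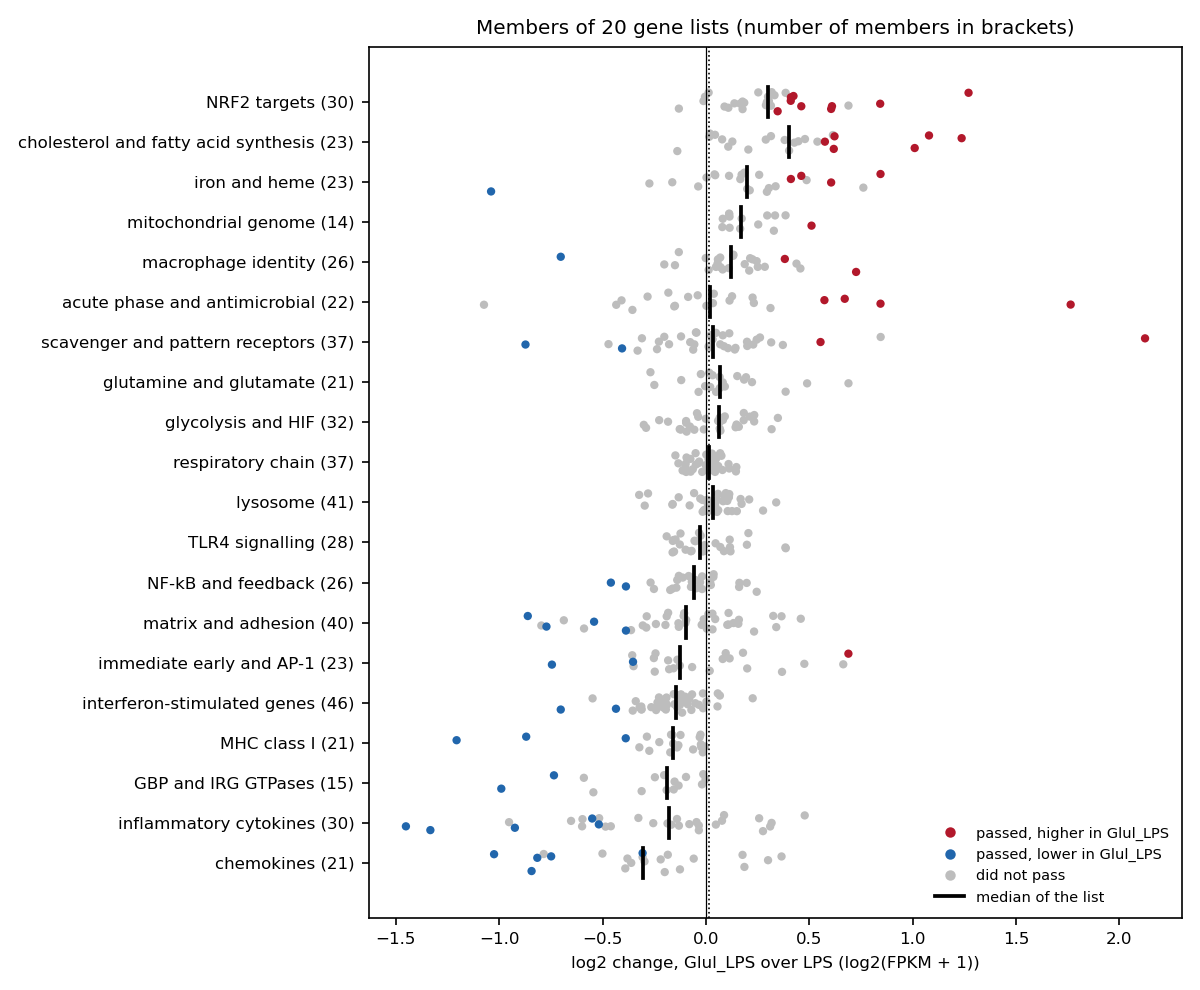
Log2 change of Glul_LPS over LPS (horizontal axis, on log2(FPKM + 1)) of every member of 20 gene lists (rows, number of members in brackets). Red and blue points passed as higher and lower, grey points did not pass, black ticks are list medians and the dotted line is the median of all 9458 genes, 0.02. The medians run from 0.40 for cholesterol and fatty acid synthesis to −0.31 for chemokines, while glycolysis, the respiratory chain and lysosomal genes sit near the dotted line.

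The genes past the threshold were mostly protein-coding, 56 of those higher and 53 of those lower, and 3 of those higher and 6 of those lower were predicted genes or pseudogenes. The tenth of genes with the highest levels held 36 of the 121, 15 higher and 21 lower. Chromosome 19, with 368 of the genes compared, held 8 of the 60 that rose, among them Scd1, Scd2, Fads2, Fth1, Ms4a7 and Pold4, and chromosome X, with 303, held 0. Pold4, a subunit of DNA polymerase delta, stood at 20.7 and 21.1 FPKM in Glul_LPS against 9.96 and 13.3 FPKM in LPS (log2 change 0.80, adjusted p = 0.0436). Of its 50-base stretches 21.7% occur in other genes, and 24.6% of its exon bases overlap another gene. Of the genes past the threshold, 32 that rose and 29 that fell are on none of the lists. Among them Ly6a, the stem cell antigen Sca-1, stood at 6.53 and 6.20 FPKM in Glul_LPS against 11.3 and 11.5 FPKM in LPS (log2 change −0.75, adjusted p = 0.0207). St3gal5, which makes the ganglioside GM3, stood at 7.97 and 8.05 FPKM in Glul_LPS against 12.9 and 13.7 FPKM in LPS (log2 change −0.67, adjusted p = 0.0202). Csrnp1, an immediate early nuclear protein, stood at 37.9 and 35.1 FPKM in Glul_LPS against 61.5 and 65.6 FPKM in LPS (log2 change −0.78, adjusted p = 0.0218).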

How the data were processed

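RNA of 6 libraries was measured, 2 each of Glul_LPS, LPS and control, grouped by the labels. The authors deposited 1 table of FPKM values per gene. Tools listed in the submitters' processing notes are HISAT2 2.1.0, HTSeq 0.6.0, CASAVA and DESeq2, with GRCm38 as the build. Their order, the strand setting and the annotation were not given in the sources used here. The table has 6 more columns of values that match no listed sample and were left out.

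Multiplying FPKM by exon length (GENCODE M21) and library total gave whole fragments, within 0.01, for 96.5% to 97.0% of genes with 1 exon, which gave the depths. Counting error at these depths is the only error such totals describe. The 10962 genes that reached 1 FPKM in 2 or more of the 6 libraries were analysed as log2(FPKM + 1). One two-sided fit of limma 3.58.1 (R 4.3.3) held all 3 groups, with a trend of spread on level, 6.27 total degrees of freedom, the Benjamini-Hochberg adjustment and a threshold of 0.05. Folds of genes near 1 FPKM are understated on this scale. "Rose" and "fell" mean past the threshold. The code of the fit was tested on simulated fragments, whose spread was set and not taken from these libraries, so that test does not bear on the calls.

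The genes compared, the 46 gene lists, the motifs and the rule for naming genes were chosen with earlier results of these data known. The rule takes Glul, up to 25 called genes per direction by size of change (mean of 5 FPKM or more in the higher group, groups without overlap), 10 further per direction by adjusted p, up to 5 per list past the threshold, and 21 fixed genes; predicted genes are given as counts. Lyz2 was named to check the cell type. The text gives a selection of the 129 genes this allows, and some of them are not reported here. The letters B and C were not used to pair libraries, since the labels do not say that they mark shared animals or days. Deviations of libraries with the same letter correlated at −0.06 between Glul_LPS and LPS, which cannot exclude such sharing. Alternatives were other pseudocounts, filters, scalings and fits, voom on recovered fragments, and leaving out each library. Intervals cover the spread between libraries only.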

Additional observations from a re-analysis of the deposited data

How the results depend on the processing

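The genes past the threshold numbered 60 higher and 61 lower. With no filter they were 2 and 1, with a filter at a mean of 5 FPKM 136 and 128, in a fit of the 2 groups alone 20 and 39, without the mean-variance trend 18 and 24, against a minimum change of 0.5 log2 units 2 and 0, and in limma voom on recovered fragments 208 and 292 of the 8229 genes it tested. Fits with 1 library left out gave 1 to 20 higher and 0 to 37 lower. Pseudocounts of 0.1 and 0.5, the genes compared fitted alone, TPM, quantile normalization, median centring and a robust spread moved either count by less than 1.5 times. The cause of these differences was not tested.

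With the replicate letter as a block, 37 were higher and 50 lower, but the labels do not say whether the letters pair libraries.

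For the 92 genes followed, the alternatives gave 1817 values, since some did not test every gene, and in these the genes that passed did not reverse their direction. With 1 library left out, a gene without overlap between Glul_LPS and LPS cannot reverse. Of the genes that did not pass, 4 changed sign with 1 library left out. Over these fits the log2 change of Il6 ran from −0.27 to 0.011, the log2 change of Il12a from −0.19 to 0.12, the log2 change of Irf7 from −0.14 to 0.0038 and the log2 change of Slc1a5 from −0.066 to 0.058.

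Depth limits genes of few fragments, such as Hamp (0 to 14 per library) and Mir199a-1 (0 to 5 per library), and 2 libraries a group limit all values.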
